A study of Mus musculus with 8 samples.

Results

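Small leucine-rich proteoglycans were followed in MC3T3, a pre-osteoblast line of the mouse known to lay down collagen matrix, with and without medium conditioned by lung carcinoma cells. The 10 members (Dcn, Bgn, Lum, Fmod, Ogn, Omd, Aspn, Prelp, Kera and Podn) were picked out by gene symbol from the 43346 genes of the deposited count table. Each symbol matched 1 row. All cells were kept for 7 days with 10 mM beta-glycerophosphate and 100 micrograms per mL of ascorbic acid, which support mineralization. The 4 LLC-CM libraries came from cells that also received 25% medium conditioned by LLC1, a Lewis lung carcinoma line, and filtered after serum-free culture. The labels do not spell out NCM. These 4 libraries are taken as the vehicle controls because the protocols name no other group. No genotype or allele is given. Nothing in the labels states that the replicates were cultured independently, so the p-values rest on a between-library spread that may be only technical.

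The proteins of this family are secreted matrix molecules built from a horseshoe of leucine-rich repeats, and most carry chondroitin, dermatan or keratan sulfate chains. They bind collagen and shape fibril diameter and spacing, and several also hold growth factors such as TGF-beta and BMPs in the matrix. In bone, biglycan and decorin are classic matrix components, osteomodulin is a product of mature osteoblasts, and osteoglycin was first isolated from bone. Sequence classes are customarily used: class I (Dcn, Bgn, Aspn), class II (Lum, Fmod, Prelp, Kera, Omd), class III (Ogn) and the non-canonical Podn.

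Library totals ran from 27264212 to 35573953 counts, and 14991 genes passed the low-count filter. The osteoblast label was checked against 9 markers. All 9 passed the filter, and Col1a1, the alpha-1 chain of type I collagen, averaged 17796 CPM (counts scaled to the library total) in NCM. In LLC-CM 8 of the 9 were lower and 1, Spp1 (osteopontin), was higher, against 18.1% lower and 18.8% higher of all genes tested. Markers of other cells moved in part with the groups. The 7 listed leukocyte genes summed to 18.7 to 32.3 CPM in LLC-CM and 11.7 to 17.4 CPM in NCM. Lyz2 led that sum and was higher, as was Fcer1g (1.25 against 0.427 CPM), while Csf1r and Cd68 did not pass the test. Itgam and Tyrobp were at 0 counts. The 7 epithelial genes summed to 1.11 to 2.24 CPM against 0.318 to 0.709 CPM, with Epcam, Krt8, Krt18 and Esrp1 at 0. Most of that sum was Muc1, which was higher in LLC-CM (1.46 against 0.383 CPM, log2 fold change 1.93 ± 0.36). The 7 tendon genes summed to 39.4 to 43.3 CPM against 58.8 to 71.1 CPM, mostly through the immediate early gene Egr1 (13.1 against 30.2 CPM). Tnxb was also lower (3.77 against 6.35 CPM, log2 fold change -0.74 ± 0.17). Scx, Mkx and Comp did not pass the test and Tnmd was at 0. Thbs4, not tested, had 0 counts in LLC-CM and 61 in NCM. The 8 chondrocyte genes summed to 74.0 to 97.1 CPM against 180 to 204 CPM, with Col2a1, Hapln1 and Matn3 lower, Sox9 higher and Matn1 at 0. The 7 adipocyte genes summed to 29.4 to 40.1 CPM against 26.7 to 30.3 CPM, with Fabp4 and Cebpa higher and Plin4 lower. Of those not tested, Lep had 57 counts in LLC-CM and 8 in NCM, Adipoq 24 and 6, Pparg 20 and 17, and Plin1 0 and 1. The 5 endothelial genes summed to 1.52 to 1.71 CPM against 2.18 to 2.73 CPM, with Cdh5 and Kdr at 0. Most of that sum was Vwf, which was lower in LLC-CM (1.41 against 2.34 CPM, log2 fold change -0.73 ± 0.18). The 2 keratocyte genes summed to 28.0 to 36.8 CPM against 39.4 to 49.1 CPM, nearly all from Aldh3a1. The part of these cell types in the results below was not tested, and in bulk RNA a change in the number of cells of a type and a change in RNA per cell cannot be told apart.

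Most of the family was higher with conditioned medium, while osteomodulin went the other way. Of 9 members tested, 6 rose (Dcn, Lum, Fmod, Ogn, Aspn and Podn), 1 fell (Omd), and Bgn and Prelp did not pass the threshold, an adjusted p of 0.05 in edgeR's quasi-likelihood test. Over all genes tested, 18.8% rose and 18.1% fell, 36.9% together. The 2 groups did not overlap for 7 of the 9, against 36.3% of all genes tested. A rise of at least 2-fold was called for 5 members (Dcn, Lum, Ogn, Aspn and Podn), against 4.99% of all genes tested, and a change of that size in either direction for 6, with Omd, against 8.61%. A test against a 2-fold change itself, passed by 5.24% of all genes tested, was passed by Lum, Ogn and Podn. The tenth gene, Kera, which encodes the corneal proteoglycan keratocan, had 0 counts in LLC-CM and 1 count in NCM and was not tested. For a gene with no count, the floor of 3 counts corresponds to 0.111 CPM in the library of least depth, a limit for counting error only. The lowest of the other members, Podn, had at least 84 counts in every library.

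**Figure D1:**
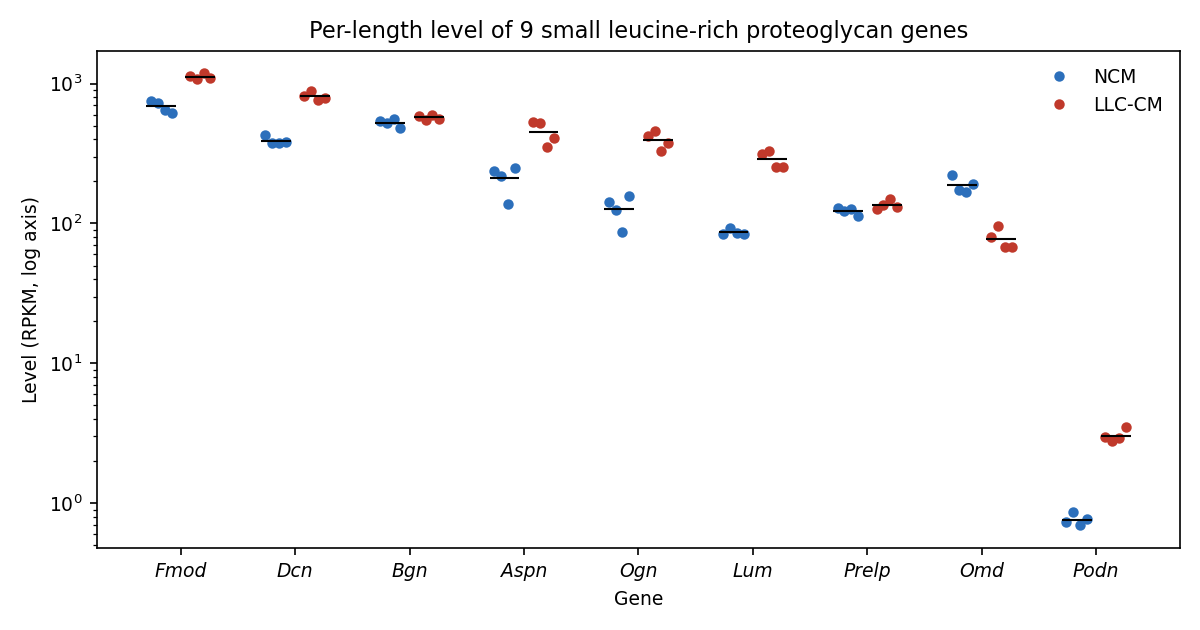
Levels of the 9 members that were tested, as CPM per kilobase of gene length (RPKM, log axis), with one point per library and a black line at each group mean (4 NCM libraries in blue, 4 LLC-CM libraries in red). The groups separate for every gene except Bgn and Prelp, and Omd alone is lower in LLC-CM.

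The family formed an abundant set of transcripts. The 10 genes together took 1.22% ± 0.04 of counts in LLC-CM and 0.803% ± 0.042 in NCM (SD, n = 4). Their summed level was 11717 to 12633 CPM in the LLC-CM libraries and 7635 to 8596 CPM in the NCM libraries, 1.52-fold apart with no overlap. In CPM per kilobase of the gene length in the deposited table (RPKM), Fmod had the highest level in both groups, at 1123 ± 49.8 RPKM in LLC-CM and 687 ± 62.3 RPKM in NCM (SD, n = 4). By that measure Fmod ranked at place 31 of all genes in LLC-CM and at place 59 in NCM.

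The order of per-length levels changed below Fmod. In NCM it ran Fmod, Bgn, Dcn, Aspn, Omd, Ogn, Prelp, Lum and Podn, and the libraries of Aspn and Omd overlapped, as did those of Ogn and Prelp. In LLC-CM it ran Fmod, Dcn, Bgn, Aspn, Ogn, Lum, Prelp, Omd and Podn, and the libraries of Aspn and Ogn overlapped. The place of Bgn and Dcn depends on the length used, since the table gives Bgn 6099 bases and Dcn 2084 bases. The longest GENCODE M21 transcript has 2666 bases for Bgn, in a single exon, and 4692 bases for Dcn. With those lengths Bgn led in both groups, at 1313 ± 50.2 RPKM in LLC-CM and 1203 ± 76.5 RPKM in NCM, and Dcn fell to 361 ± 23.5 and 173 ± 11.6 RPKM (SD, n = 4).

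In the make-up of the pool, Bgn, Omd and Prelp had smaller shares in LLC-CM, and Dcn, Lum and Ogn larger ones. As a share of the summed RPKM of the family, Omd went from 8.04% ± 0.66 in NCM to 2.01% ± 0.26 in LLC-CM (SD, n = 4). Bgn went from 22.5% ± 2.01 to 14.9% ± 1.04 and Prelp from 5.24% ± 0.37 to 3.53% ± 0.40, although their own levels did not pass the test. Dcn went from 16.7% ± 0.58 to 21.0% ± 0.77, Ogn from 5.45% to 10.2% and Lum from 3.71% ± 0.30 to 7.42% ± 0.65. Aspn was at 8.98% ± 1.97 in NCM and 11.7% ± 1.75 in LLC-CM. The share of Fmod was 29.3% ± 1.51 in NCM and 29.2% ± 2.35 in LLC-CM, within its spread. These shares use the length column of the table and are descriptions without a test. The size of every share depends on those lengths, since each is taken over the sum of the family. As a share of the family's reads, without lengths, Omd went from 3.65% ± 0.37 in NCM to 0.99% ± 0.15 in LLC-CM. By reads Fmod was at 28.3% ± 1.20 in NCM and 30.5% ± 1.80 in LLC-CM.

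**Figure D2:**
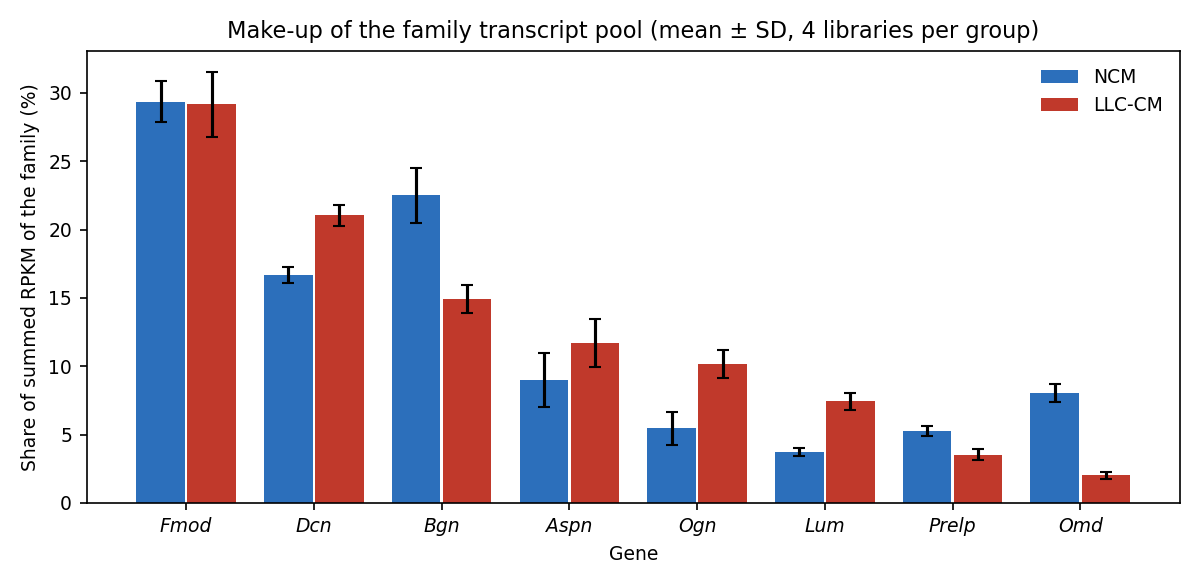
Share of each gene in the summed RPKM of the family, in percent, as mean and SD over 4 libraries per group (NCM in blue, LLC-CM in red; Podn and Kera, under 0.1%, are left out). The bars of Omd go from 8.04% to 2.01% and those of Bgn from 22.5% to 14.9%, while Dcn, Ogn and Lum take larger shares in LLC-CM.

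Among class I genes, decorin and asporin rose and biglycan did not pass the test. Dcn (ENSMUSG00000019929, mm10 chromosome 10, 97479500 to 97518162) encodes decorin, which binds along type I collagen fibrils and sequesters TGF-beta. It measured 1690.0, 1849.6, 1596 and 1641 CPM in LLC-CM replicates 1 to 4, against 894, 779, 782 and 799 CPM in NCM. All LLC-CM values lay above all NCM values, and the rise was 2.08-fold (log2 1.06 ± 0.08, SE, edgeR adjusted p = 3.8e-08). Aspn (ENSMUSG00000021388, chromosome 13, 49544443 to 49567557) encodes asporin, an aspartate-rich relative that lacks a glycosaminoglycan chain and binds collagen and calcium. Its level was 1257, 1219.8, 825 and 954 CPM in LLC-CM and 557, 515, 322 and 587 CPM in NCM. The groups did not overlap, but replicate 3 was the lowest of each group, and the within-group spread was the widest of the family (coefficient of variation 19.6% and 24.1%). The log2 fold change was 1.10 ± 0.19 (SE, edgeR adjusted p = 0.00090), and 0.93 ± 0.13 without NCM replicate 3.

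Biglycan, the X-linked homologue of decorin and a ligand of Toll-like receptors when released from matrix, behaved differently from both. Bgn (ENSMUSG00000031375, chromosome X, 73483602 to 73495933) measured 3602, 3358, 3628 and 3418 CPM in LLC-CM and 3305, 3212, 3389 and 2920.2 CPM in NCM. The ranges overlapped through NCM replicate 3, and the log2 fold change was 0.13 ± 0.08 (SE, edgeR adjusted p = 0.22). In consequence the ratio of Dcn to Bgn reads, which needs no scaling between libraries, was 0.440 to 0.551 in LLC-CM and 0.231 to 0.274 in NCM. That ratio was 1.91-fold higher in LLC-CM, with no overlap.

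Class II genes went in 3 ways. Lum (ENSMUSG00000036446, chromosome 10, 97565501 to 97572703) encodes lumican, a keratan sulfate proteoglycan of cornea and other collagenous tissue. Its level was 656, 679, 524 and 528 CPM in LLC-CM and 174, 194, 177 and 174 CPM in NCM. The lowest LLC-CM library was above every NCM library by more than the spread within either group. The rise was 3.32-fold (edgeR adjusted p = 9.9e-10), larger than that of its neighbour Dcn, and the ratio of Lum to Dcn reads rose from 0.194 to 0.249 in NCM to 0.322 to 0.388 in LLC-CM.

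Fmod (ENSMUSG00000041559, chromosome 1, 134037254 to 134048277) encodes fibromodulin, which directs collagen fibril assembly in tendon. It measured 3771, 3539.9, 3916 and 3629.7 CPM in LLC-CM and 2488, 2399, 2153 and 2048 CPM in NCM. The 2 groups were separate, with a log2 fold change of 0.71 ± 0.08 (SE, edgeR adjusted p = 7.4e-06), a 1.63-fold rise. Prelp (ENSMUSG00000041577, chromosome 1, 133910304 to 133921414) encodes an arginine- and proline-rich protein that links basement membranes to collagen. Its values of 457, 488, 544 and 477 CPM in LLC-CM overlapped those of 466, 440.3, 456 and 408 CPM in NCM. The log2 fold change was 0.15 ± 0.07 (SE, edgeR adjusted p = 0.11). On the opposite strand the annotated gene Gm15851 covers 9.68% of the Prelp exons, and reads from the 2 strands cannot be told apart with this kit. Gm15851 itself had 5 counts in LLC-CM and 0 in NCM.

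Osteomodulin was the member that fell. Omd (ENSMUSG00000048368, chromosome 13, 49582766 to 49592609) encodes an acidic keratan sulfate proteoglycan of mineralized tissue, also called osteoadherin, that binds hydroxyapatite and osteoblast integrins. Its level was 124, 150.2, 105 and 106 CPM in LLC-CM against 347, 269.7, 260.2 and 298 CPM in NCM. Every LLC-CM library lay below every NCM library, and the level was 2.42-fold lower (log2 fold change -1.28 ± 0.12, SE, edgeR adjusted p = 2.7e-06). Parts of the Omd transcript of up to 189 of its 2249 bases resembled transcripts of at least 433 other genes, at 82.0% identity over the longest. The search kept a limited number of matching transcripts, so there may be more. The 9 osteoblast markers summed to 65801 to 77986 CPM in LLC-CM and 92909.5 to 119005 CPM in NCM. Their log2 fold changes were -6.35 for Bglap, -2.19 for Alpl, -1.20 for Sp7, -0.99 for Runx2, -0.71 for Sparc, -0.60 for Col1a2, -0.49 for Col1a1 and -0.45 for Ibsp, against 0.78 for Spp1. Their part in the fall of Omd was not tested.

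Osteoglycin and podocan, outside classes I and II, both rose. Ogn (ENSMUSG00000021390, chromosome 13, 49608071 to 49624500) encodes osteoglycin, or mimecan, which takes part in collagen fibril formation. It measured 1065, 1159, 832 and 949 CPM in LLC-CM and 362, 319, 221 and 397 CPM in NCM. The rise was 3.08-fold with no overlap (log2 1.62 ± 0.17, SE, edgeR adjusted p = 1.1e-05), and 1.47 ± 0.11 without NCM replicate 3, the lowest library. Podn (ENSMUSG00000028600, chromosome 4, 108014791 to 108096445) encodes podocan, a collagen-binding protein described in vascular smooth muscle and kidney. Its level was far below the others, at 12.7, 11.8, 12.5 and 14.9 CPM in LLC-CM and 3.10, 3.68, 2.97 and 3.28 CPM in NCM. It had the largest fold rise of the members, 3.97-fold (log2 1.99 ± 0.12, SE, edgeR adjusted p = 5.2e-09).

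Within a group, Aspn and Ogn deviated together. In NCM replicate 3 their log2 deviations from the group mean were -0.59 and -0.52. The other tested members in that library lay between -0.17 (Omd) and 0.08 (Bgn), with Dcn at -0.05. In LLC-CM, replicates 1 and 2 were above the group mean and replicates 3 and 4 below it for Aspn, Ogn, Omd and Lum alike, by between -0.35 and 0.32 log2 units. Bgn, Fmod, Prelp and Podn did not follow that order, and Dcn was at -0.001 in LLC-CM replicate 1. The labels give no batch or date that could be set beside it.

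Members that neighbour each other on a chromosome did not all move the same way. Aspn, Omd and Ogn lie on the same strand within 80.1 kb of chromosome 13, preceded by Ecm2, a leucine-rich repeat matrix gene. Ecm2, Aspn and Ogn rose, and Omd, which lies between Aspn and Ogn, fell. Ecm2 rose from 18.7 ± 1.15 to 30.0 ± 1.85 CPM (SD, n = 4, edgeR adjusted p = 5.5e-06), a log2 fold change of 0.68 ± 0.08. Of the genes flanking this set, Tes3-ps (-0.04 ± 0.15) and Nol8 (-0.15 ± 0.07) did not pass the test, and Gm23086 had no count. Cenpp, on the opposite strand, overlaps 7 bases (0.3%) of the Aspn exons. It had 839 counts in LLC-CM and 692 in NCM and did not pass the test (0.17 ± 0.14). Reads of Ogn per read of Omd were 7.72 to 8.93 in LLC-CM and 0.849 to 1.33 in NCM, 7.61-fold higher without overlap. Those of Aspn per read of Omd were 7.84 to 10.2 against 1.24 to 1.97.

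On chromosome 10, Dcn, Lum and Kera lie within 134 kb. Dcn and Lum rose, while Kera and the adjoining class III gene Epyc had 1 count each, in NCM. Btg1, on the far side of Dcn, had a log2 fold change of 0.02 ± 0.06, and Gm24587 and Gm10754 had no count. On chromosome 1, Prelp and Fmod lie within 138 kb, next to Optc, the class III gene of the eye protein opticin. Optc rose from 0.216 ± 0.110 to 0.560 ± 0.208 CPM (SD, n = 4, edgeR adjusted p = 0.022), with 72 counts over LLC-CM and 25 over NCM. Of the other genes there, Gm1627 (-0.74 ± 0.32) and Btg2 (0.22 ± 0.09) did not pass, Gm28441 and Gm18970 had no count, and RP23-393C3.4 had 7 counts in LLC-CM and 10 in NCM.

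**Figure D3:**
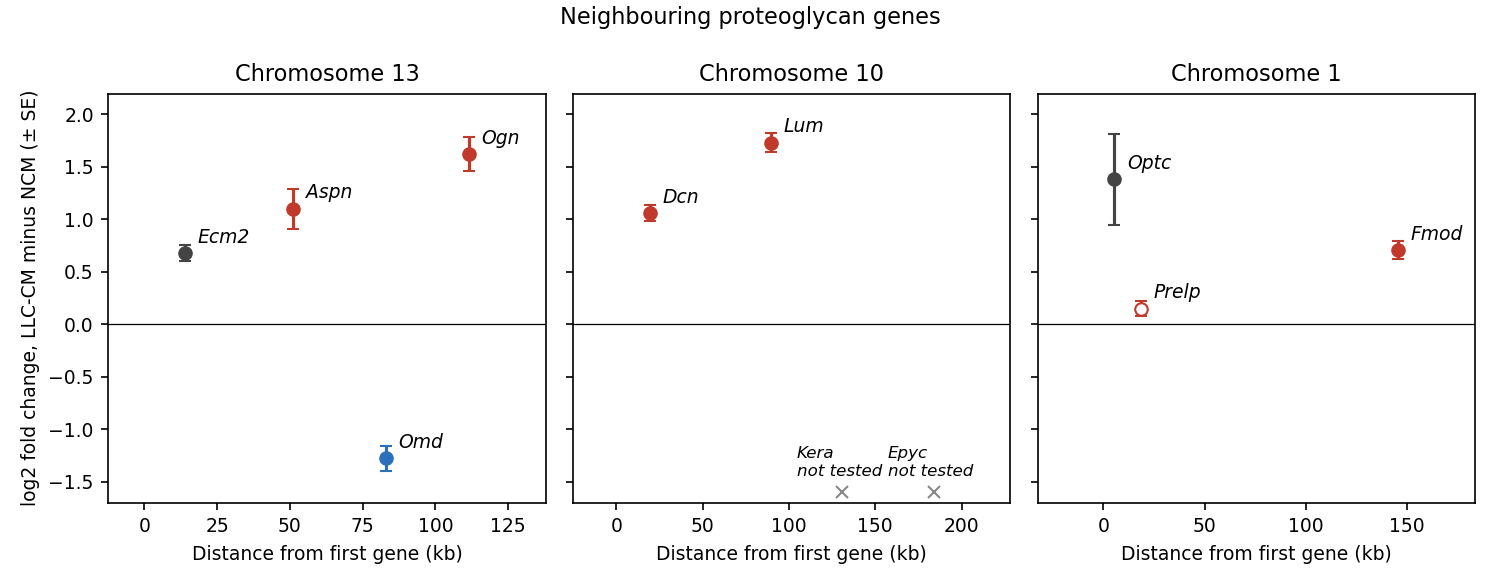
Log2 fold change (LLC-CM minus NCM) with its SE for the protein-coding proteoglycan genes of 3 chromosomal sets, plotted at the middle of each gene, in kb from the start of the first gene shown (members in red where higher and blue where lower, relatives in grey, open symbol where the test was not passed, crosses without a value on the vertical axis for genes not tested). Omd at -1.28 sits between Aspn at 1.10 and Ogn at 1.62.

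The upstream sequences of the 3 neighbours on chromosome 13 are shown because 2 of these genes rose and the one between them fell. RefSeq promoters (GRCm38.p6, the same assembly as mm10) were found for 8 of the 10 members. Each run below is the 250 bases before the RefSeq start site on the plus strand, 5′ to 3′, with matches to 6 motifs in capitals on either strand. Aspn covers chr13:49544193-49544442, Omd chr13:49582212-49582461 and Ogn chr13:49607765-49608014.
Aspn: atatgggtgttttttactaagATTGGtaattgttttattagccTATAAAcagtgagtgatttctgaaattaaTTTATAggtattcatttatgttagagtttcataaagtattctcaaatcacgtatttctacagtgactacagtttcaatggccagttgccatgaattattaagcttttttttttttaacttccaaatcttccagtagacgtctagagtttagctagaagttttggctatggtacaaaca
Omd: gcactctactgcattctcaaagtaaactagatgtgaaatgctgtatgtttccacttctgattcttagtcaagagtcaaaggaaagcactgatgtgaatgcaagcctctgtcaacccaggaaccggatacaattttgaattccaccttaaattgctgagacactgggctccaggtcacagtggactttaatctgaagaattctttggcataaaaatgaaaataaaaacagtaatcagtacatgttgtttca
Ogn: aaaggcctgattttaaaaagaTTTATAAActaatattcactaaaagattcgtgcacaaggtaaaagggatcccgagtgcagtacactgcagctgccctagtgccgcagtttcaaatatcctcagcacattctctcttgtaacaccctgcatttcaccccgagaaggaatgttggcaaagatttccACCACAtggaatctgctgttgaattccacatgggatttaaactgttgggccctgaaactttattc

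The motifs searched were the TATA box (TATAAA), the Runx site (TGTGGT), the AP-1 site (TGANTCA), the STAT site (TTCNNNGAA), the Sp site (GGGCGG) and the CCAAT box (its letters). Among 32851 RefSeq promoters, the same window held the TATA box in 12.4%, the Runx site in 14%, the AP-1 site in 6.75%, the STAT site in 7.02%, the Sp site in 32.7% and the CCAAT box in 33.8%. The Aspn window held the TATA box at 207 bases before the start and, on the minus strand, at 178 bases, and the CCAAT box on the minus strand at 229 bases. The Ogn window held overlapping TATA box matches on the 2 strands at 229 and 227 bases and the Runx site on the minus strand at 65 bases. In the Omd window none of the 6 was found, and none in that of Fmod, which rose (log2 fold change 0.71 ± 0.08). Any part of these matches in the changes was not tested. A match is a run of letters and not a measured binding site. The GC content of the windows was 30% for Aspn, 38.4% for Omd and 42% for Ogn.

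Relatives of the family and other proteoglycan core proteins also changed. In both lists the counts are to be set beside the 18.8% of all tested genes that rose and the 18.1% that fell. Of 5 tested relatives, 3 rose and 1 fell, with a median log2 fold change of 0.65 against 0.01 over all genes tested. Podnl1, the closest relative of podocan, rose by 0.65 ± 0.13, and Nyx, a retinal family member, had a log2 fold change of -0.99 ± 0.19 at 1.23 CPM in LLC-CM. Of 14 tested core proteins of other families, 8 rose and 4 fell (median 0.30). Vcan, the large chondroitin sulfate proteoglycan versican, rose from 68.1 to 294 CPM (log2 2.11 ± 0.12), and the glypican Gpc4 rose by 0.91 ± 0.07. Srgn, the intracellular proteoglycan serglycin of blood and endothelial cells, had 1211 counts over LLC-CM and 7 over NCM.

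Genes that build and sulfate glycosaminoglycan chains went both ways, in shares to be read against the 18.8% of all tested genes that rose and the 18.1% that fell. Of 6 tested genes for the linkage to the core protein, 1 rose (Pxylp1, 0.34 ± 0.08) and 2 fell (B3gat3, -0.54 ± 0.12, and B4galt7, -0.28 ± 0.10), with a median of -0.08. Of 13 tested genes of chondroitin and dermatan sulfate synthesis, 3 rose and 4 fell, with a median of -0.05. The chondroitin sulfotransferase Chst11 fell from 56.3 ± 7.00 to 28.1 ± 2.42 CPM (SD, n = 4), and Chst3 had a log2 fold change of -0.88 ± 0.11. Chst14, the sulfotransferase of dermatan sulfate, rose by 0.53 ± 0.08. Of 5 tested keratan sulfate genes, 3 rose and 1 fell (median 0.28). These included the galactosyltransferase B4galt4 (0.91 ± 0.20) and the sulfotransferase Chst2 (0.84 ± 0.18), at 4.59 and 3.12 CPM in LLC-CM, and Fut8, a core fucosyltransferase, at -0.55 ± 0.09.

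Supply of the sulfate donor had one strongly lowered gene. Papss2, which makes the donor PAPS and is needed for skeletal matrix sulfation, averaged 126 CPM in NCM and 30.0 CPM in LLC-CM (log2 fold change -2.07 ± 0.06, edgeR adjusted p = 5.2e-12). Its paralogue Papss1 had a log2 fold change of -0.31 ± 0.06, and the sulfate transporter Slc26a2 rose by 0.33 ± 0.06. Of the 7 genes tested, 2 rose and 3 fell, with a median of -0.01, beside 18.8% and 18.1% of all genes tested.

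**Figure D4:**
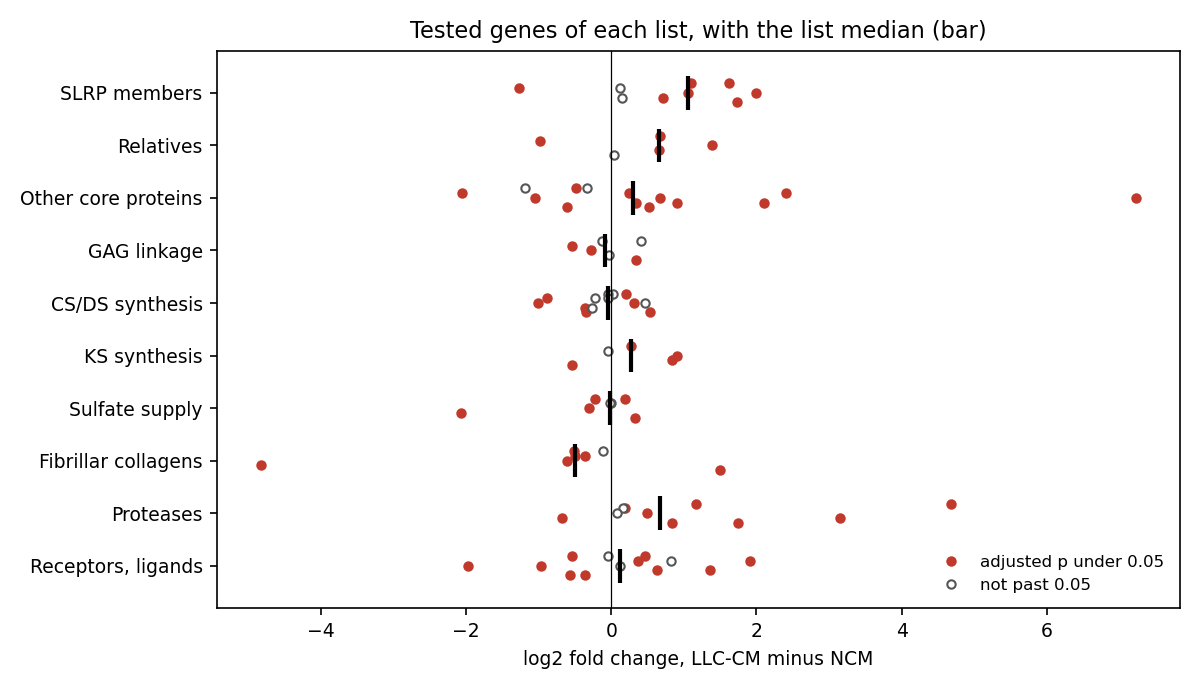
Log2 fold change (LLC-CM minus NCM) of each tested gene in the family and in 9 lists of related genes, filled where the adjusted p was under 0.05 and open otherwise, with a bar at the list median. GAG, CS, DS and KS stand for glycosaminoglycan, chondroitin sulfate, dermatan sulfate and keratan sulfate. The family median is 1.06, the fibrillar collagens lie mostly below 0 with a median of -0.49, and Papss2 is the lowest point of the sulfate supply genes.

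The collagens that these proteoglycans coat moved mostly downward, apart from type III. Of 7 fibrillar chains tested, 5 fell and 1 rose (median -0.49). Over all genes tested, 18.8% rose and 18.1% fell, which is also the background for the protease and receptor lists below. Col3a1, the type III chain found with lumican and decorin in soft connective tissue, rose from 4858 ± 134 to 13759.7 ± 1579 CPM (SD, n = 4). Col2a1, the cartilage collagen, fell (-4.82 ± 0.24), as did Col11a1 (-0.51 ± 0.08). The next list holds proteases reported to process or cleave family members, and an enhancer of such proteases. Of its 10 tested genes, 7 rose, the enhancer among them, and 1 fell (median 0.67). Mmp13 rose from 290.1 ± 21.2 to 7466 ± 728 CPM (SD, n = 4), Htra1, a secreted serine protease that can degrade decorin, rose by 1.75 ± 0.07 and Adamts1 by 1.17 ± 0.09. Bmp1, which removes the propeptides of biglycan and osteoglycin, was the one that fell, with a log2 fold change of -0.68 ± 0.11; this gene was picked out after its value was seen. Of 13 tested receptors and ligands reported to bind these proteoglycans, 5 rose and 5 fell (median 0.12). Egfr, a receptor that decorin binds, rose by 1.91 ± 0.17, while Tgfb1 (-0.96 ± 0.10) and Wisp1 (-1.97 ± 0.07) fell.

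Outside these lists, the genes whose log2 CPM followed the summed level of the family most closely over the 8 libraries were Dennd2a, Ggta1 and Cp, with Pearson correlations of 0.997, 0.997 and 0.996. The libraries fall into 2 separate groups, so these values mostly describe the difference between groups. Cp, the copper-binding plasma protein ceruloplasmin, averaged 2515 CPM in LLC-CM and 765 CPM in NCM.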

How the data were processed

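Poly(A)-selected RNA of 8 MC3T3 libraries was sequenced, and the authors deposited raw counts of reads per gene. The submitters' processing notes name CASAVA, STAR, featureCounts and the mm10 build, while their versions are not given in the sources used here. Per the labels' protocols a TruSeq RNA kit was used, which leaves strand unmarked. Gene lengths come from a column of the deposited table.

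Columns were matched to samples by title. Genes were filtered with filterByExpr (14991 of 43346 kept) and tested with edgeR 4.0.16 (limma 3.58.1, R 4.3.3): TMM factors, robust quasi-likelihood F test, two-sided, no covariate, and p-values adjusted by Benjamini-Hochberg across every tested gene (threshold 0.05). Log2 fold changes are LLC-CM minus NCM, and each SE is the absolute log2 fold change over the root of its F statistic. CPM uses TMM-scaled totals, and RPKM is CPM per kilobase. The test was checked on simulated counts. Libraries of 1 group differed by at least 7.07 chi-square units per degree of freedom over genes with counts, so none was a repeat deposit. Named genes were all members, up to 3 genes per list with the smallest adjusted p, the 2 nearest genes on each side of member sets within 1 Mb, and the 3 genes closest to the summed level. Marker genes outside that rule were named after their values were seen. The members, lists and alternatives were chosen with earlier results of these data known. Transcripts of members were compared with those of other genes by blastn 2.17.0. Beyond the antisense partner of Prelp no match found exceeded 189 bases, with 82.0% identity at that length. Only the longest match of each member was recorded, so shorter matches of higher identity are not covered. Alternatives included DESeq2 1.42.0 and limma-voom.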

Additional observations from a re-analysis of the deposited data

How the results depend on the processing

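The 6 rises and 1 fall kept their calls, and Bgn and Prelp stayed outside the threshold, under each of 17 alternatives to the fit: 3 other scalings, 2 other filters, DESeq2, limma-voom, the replicate block, a term for odd against even replicates, and each library left out. Over these, adjusted p reached at most 0.017 for Aspn (without LLC-CM replicate 2) and 0.0011 for Ogn, and at least 0.14 for Bgn and 0.080 for Prelp. The other scalings moved the median of all genes by between -0.01 and 0.01 log2 units. An adjusted p of 0.01 gave the same member counts, beside 2014 genes higher and 1932 lower of all tested. A test against a 2-fold change itself called 3 members higher (Lum, Ogn and Podn) and 0 lower, with Omd at an adjusted p of 0.082, and 413 genes higher and 372 lower of all tested; it asks for a larger change. Dcn and Aspn did not pass it either. Over all tested genes, same-numbered libraries did not as a rule deviate together (correlations 0.07, -0.04, 0.20 and -0.03 for replicates 1 to 4). Not every library matched its own number best, but the 0.20 of replicate 3 was the highest value between libraries of different groups. For Aspn, Ogn and Omd, replicate 3 was the lowest library of both groups. The replicate block left 6 members higher and 1 lower, with 2810 genes higher and 2663 lower. It took the SE from 0.19 to 0.099 for Aspn, from 0.17 to 0.10 for Ogn and from 0.12 to 0.094 for Omd. The SE also fell for Lum and grew for the other tested members.

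With the longest annotated transcript as length, per-length levels in LLC-CM and NCM became 361 and 173 RPKM for Dcn, 1313 and 1203 for Bgn, 244 and 73.4 for Lum, 54.0 and 131 for Omd and 3.56 and 0.896 for Podn, and 1190.4 for Fmod in LLC-CM, by more than 1 SD. Length does not alter any fold change. Depth limits Kera, at 1 count in all, and Optc, at 72 and 25 counts per group.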

Other observations

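No library of the 9 tested members, or of their summed level, stood apart from the other 3 of its group by Dixon's test over 20 groups of 4. By chance about 1 in 20 such groups would.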
